A study of Mus musculus with 9 samples.

Results

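The genes described here are S100a4, S100a6, S100a10 and S100a11 of the S100 family, the annexins Anxa2, Anxa3 and Anxa5, the galectin gene Lgals1, and Crip1 and Ahnak, which belong to none of these families. They were chosen by symbol, with earlier results of these data in view, and 10 of 10 were found among the 27998 genes of the count matrices. The measured value that entered the choice of counts was the UMI total of each barcode, described below. S100 proteins are small proteins that attach to partner proteins, among them annexins, and most of them, though not all, do so after calcium binds and changes their shape. Annexins bind acidic phospholipids of membranes in a calcium-dependent way and take part in exocytosis, membrane repair and the recognition of dying cells. Galectin-1, the product of Lgals1, binds beta-galactoside sugars on cell surfaces and is known in macrophages and microglia as a regulator of inflammation. Crip1 encodes a small LIM domain protein, and Ahnak a very large scaffold protein that is found with S100a10 and Anxa2 at the plasma membrane.

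Retinal cells positive for CD45 and CD11b, a gate that takes in microglia and other myeloid cells, were sorted from female Arr1-/- mice aged 2 to 5 months. All of these mice lack visual arrestin and were bred and kept in constant darkness. Day 0 mice stayed in the dark, and the other groups spent 7 or 20 days in constant room light of about 200 lux, which leads to loss of photoreceptors in this genotype, so a control group with working arrestin is not part of these comparisons. Transcript 3′ ends were counted as unique molecular identifiers (UMIs) in droplets (10x Genomics 3′ version 2), with 3 libraries per day. The labels do not say how many mice went into a library, and the study counts retinas and mice by time point, not by library. Whether the 3 libraries of a day are separate samples is therefore not known, and p-values measure only the spread between these libraries, which may be technical.

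Barcodes recurred between libraries, and the matrices do not show whether the same cells were sequenced in several of them. The 9 libraries listed 5022 barcode entries, but these held 1365 different barcodes, of which 612 occurred in more than 1 library and 270 in all 9. Each barcode was therefore assigned to a single library, that with its highest UMI total. These single-library counts held 1465823 of 3033324 UMIs. For the barcodes that were shared, the kept library held a median of 46.3% of the UMIs and 4.15 times those of the next library. Copies in other libraries had held 51.7% of the UMIs of all genes and between 45.1% (Crip1) and 61.8% (S100a10) of the UMIs of the 10 genes. After quality control and removal of a cluster led by rod genes (74 cells) and of one led by Ccl5, Clu and Dkk3 with markers of several cell types (72 cells, the mixed cluster), the day 0 libraries kept 254 cells, those of day 7 kept 267 and those of day 20 kept 184. These are called the retained cells. At least 3 UMIs of 14 pan-myeloid genes were found in 702 of these 705 cells, and also in 60 of the 74 rod-cluster cells. The share of pan-myeloid UMIs was part of the rule for leaving out clusters, so these counts are a description only. Day 7 replicate 3 stood apart, with 10 retained cells and 6673 UMIs against 19568 to 227751 UMIs in the other libraries, so that 1 UMI in it equals 149.9 CPM (counts of a gene scaled to a library total of 1e6 UMIs). Sag, the gene of visual arrestin, had 11 UMIs in all libraries together and at most 2 in any library.

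The 10 genes had from 17 UMIs (Ahnak) to 501 UMIs (Anxa3) in the single-library counts, and their UMIs were divided differently between the groups of cells. Of the Anxa3 UMIs, 88.6% were in retained cells, as were 80.9% for Anxa5, 67.1% for Lgals1 and 65.1% for Anxa2, beside 69.3% for all genes. For Crip1 the share was 46.7%. For the S100 genes it lay between 23.9% (S100a10) and 36.8% (S100a4), and for Ahnak it was 5.88%. The mixed cluster, with 11.9% of all UMIs, held between 50.6% and 60.6% of the UMIs of each S100 gene, 45.7% of those of Crip1 and 70.6% of those of Ahnak.

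**Figure D1:**
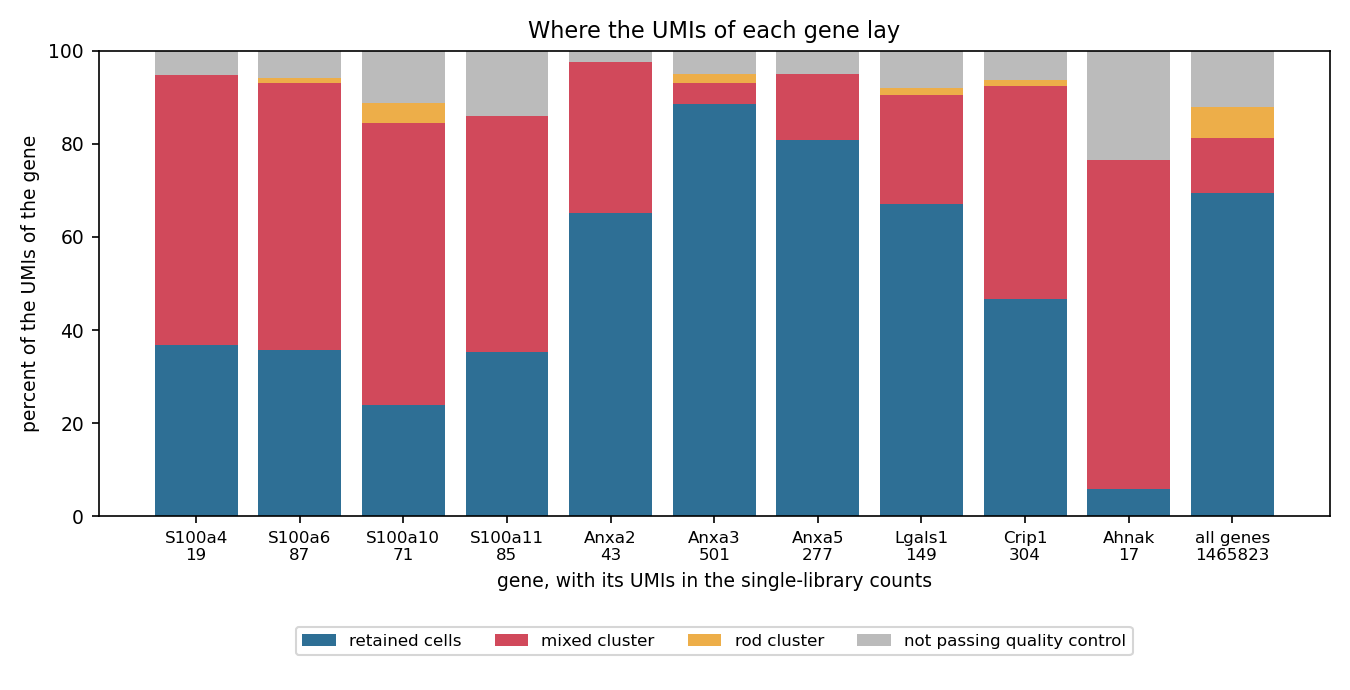
Percent of the UMIs of each gene (vertical axis) that lay in retained cells, in the mixed cluster, in the rod cluster or in barcodes that did not pass quality control, in the single-library counts. The numbers under the gene names are its UMIs. The mixed cluster holds over 50% of the UMIs of each S100 gene and of Ahnak, and 11.9% of those of all genes.

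The mixed cluster had 794 CPM of Crip1 (139 UMIs, exact Poisson 95% interval 668 to 938), while the retained cells had 139.7 (142 UMIs, 118 to 165). S100a6 stood at 286 CPM in the mixed cluster (50 UMIs, 212 to 377) and at 30.5 CPM in the retained cells (31 UMIs, 20.7 to 43.3). S100a10 and S100a11 had 43 UMIs each in the mixed cluster, or 246 CPM (178 to 331). Anxa3 went the other way, with 126 CPM in the mixed cluster (22 UMIs, 78.8 to 190.3) and 437 CPM in the retained cells (444 UMIs, 397 to 479). By cells the groups were closer, since with each cell thinned to 566 UMIs Anxa3 was seen in 15.1% of mixed-cluster cells (8 of 53) and 17.2% of retained cells (91 of 529), while Crip1 was seen in 22.6% (12 of 53) and 7.18% (38 of 529). These intervals cover counting error only, and the cluster was compared with the other cells without a test. The 10 genes themselves were left out of the clustering.

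The mixed cluster is not a cell type by its markers. It held 195 UMIs of the 8 measured T or NK cell genes (1114 CPM against 40.3 in retained cells), 4051 of the 4 MHC class II genes (23150 against 6991 CPM), 89 of 10 monocyte genes (508 against 111 CPM), 815 of 7 Müller glia genes (4657 against 789 CPM) and 1663 of 8 lens genes (9502 against 2823 CPM). The 6 dendritic cell genes had 54 UMIs (308.5 against 16.7 CPM). Myeloid transcripts were present too, with 3035 UMIs of 14 pan-myeloid genes (17340 against 49420 CPM), and 56 of 72 cells had at least 3. The cluster was left out for its Müller glia markers and lower pan-myeloid share. Its cells are therefore not in the main day comparisons. Within the mixed cluster, the UMIs of the S100 genes, Crip1 and Ahnak lay largely in a few barcodes of high depth. Across all 1365 barcodes, 11 had at least 10 UMIs of the 8 genes other than Anxa3 and Anxa5, and these 11 held 314 of 775 such UMIs (40.5%). A high share was built in, since the barcodes were picked by these counts. They had 3871 to 14316 UMIs each, against a median of 1288 in the mixed cluster. The 10 barcodes with the most UMIs held 8.47% of the UMIs of all genes. Of the 11 barcodes, 8 were assigned to day 7, 2 to day 20 and 1 to day 0. Ranks 1, 2, 4, 5, 6 and 7 were all from day 7 replicate 1, and ranks 3 and 9 from day 7 replicate 2. Day 7 replicates 1 to 3 held 241, 135 and 77 of the 1365 barcodes, so no day difference was read from this. Of the 11, 9 lay in the mixed cluster, and each was listed in all 9 libraries. One barcode had 10 such UMIs and lay just inside this limit, and 1 had 9 and lay just outside.

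The barcode with the most, from day 7 replicate 1, had 31 UMIs of Crip1, 13 of S100a11, 12 of Lgals1 and 9 of S100a10 beside 80 UMIs of T or NK cell genes among its 12518 UMIs. The next, from the same library, had 24 UMIs of Crip1, 15 of S100a6 and 10 of S100a10, and 16 UMIs of T or NK cell genes. The barcode of rank 3, from day 7 replicate 2, had 20 of Crip1, 8 of S100a6 and 3 of Ahnak, together with 25 UMIs of monocyte genes and 196 of pan-myeloid genes. In the kept library these 3 barcodes had 47.8%, 50.1% and 34.1% of their UMIs, respectively. Other barcodes among the 11 had 504 and 739 UMIs of MHC class II genes, 222 UMIs of Müller glia genes and 46 UMIs of T or NK cell genes. The highest counts of the S100 genes and Crip1 were thus in barcodes with different markers, and none of the 9 in the mixed cluster had more than 7 UMIs of homeostatic microglial genes.

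**Figure D2:**
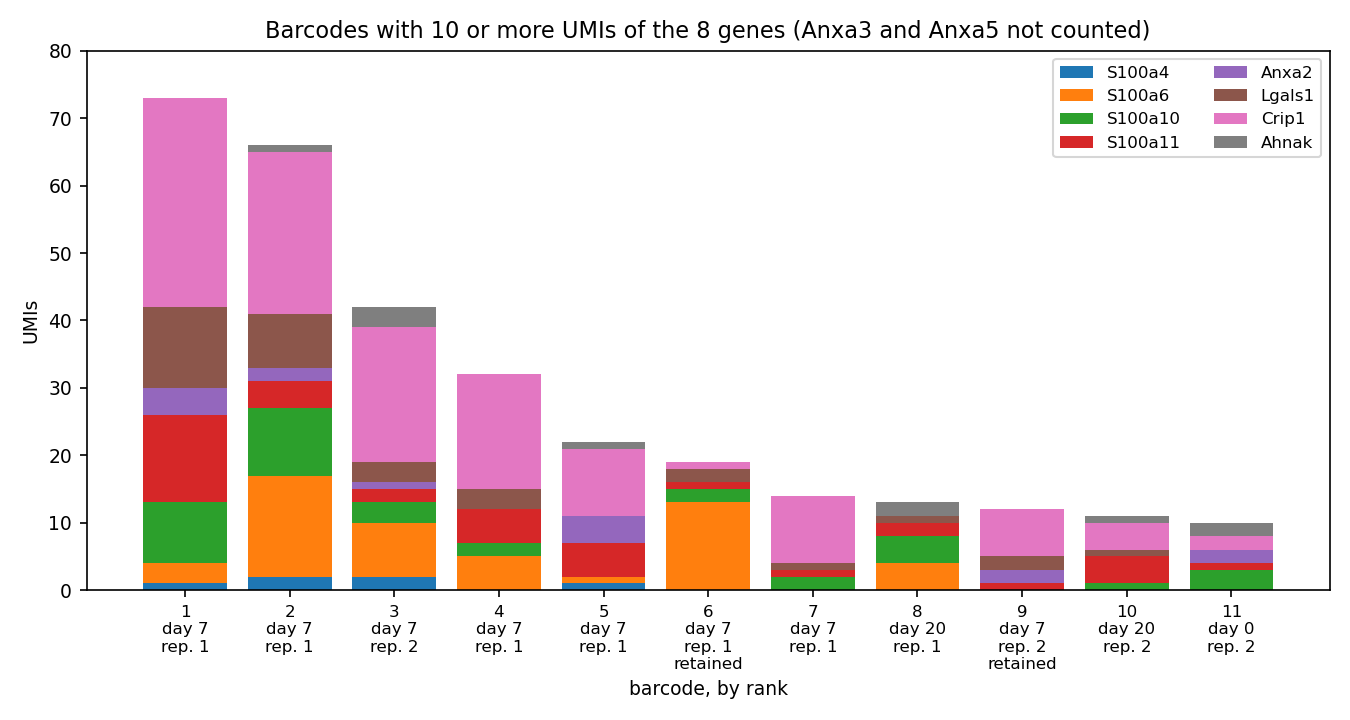
UMIs of 8 genes (stacked bars, vertical axis) in the 11 barcodes with at least 10 UMIs of them, ordered by rank, with the day and replicate each barcode was assigned to. The first 3 barcodes hold 73, 66 and 42 UMIs, and the 2 marked retained are not in the mixed cluster.

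Lgals1 was higher at day 7 than at day 0. In the retained cells it measured 12.2, 31.9 and 0 CPM in day 0 replicates 1 to 3, from 2, 6 and 0 UMIs. At day 7 it measured 250.3, 160.1 and 149.9 CPM, from 57, 15 and 1 UMIs. At day 20 it measured 89.0, 59.0 and 153 CPM, from 7, 9 and 3 UMIs. Each library of days 7 and 20 lay above each dark library, as was the case at day 7 for 16.4% and at day 20 for 12.6% of the 1283 genes with enough counts to be tested, while days 7 and 20 overlapped. In day 7 replicate 3 any single UMI equals 149.9 CPM, above each dark value, and this 1 UMI is also in the day 7 mean. The mean was 14.7 ± 16.1 CPM in the dark, 187 ± 55.3 CPM after 7 days and 100.4 ± 48.2 CPM after 20 days (SD, n = 3 libraries). The log2 fold change at day 7 was 3.53 (SE 0.58), or 11.6-fold, with an adjusted p of 0.000182 (edgeR quasi-likelihood test over 1283 genes, Benjamini-Hochberg). The size of this fold depended on day 0 replicate 2, which held 6 of the 8 dark UMIs, and without it the log2 fold change was 4.61 (SE 0.77). Summed over libraries, the ratio of day 7 to day 0 was 12.2 (73 against 8 UMIs, exact binomial 95% interval 5.86 to 29.3). This interval covers counting error only, not the spread between libraries, and 57 of the 73 UMIs lay in day 7 replicate 1.

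In the same test, 4 of the 10 genes had enough counts to be tested, and 4 passed an adjusted p of 0.05 at day 7, 3 of them higher and 1 lower. Over all 1283 genes tested, 34.1% passed, 12.4% higher and 21.7% lower. Since these 10 genes were named with results of these data known, their p-values describe the libraries and are not independent evidence, and nothing was read from the count of genes that passed. The median log2 change of the 4 genes was 1.87, beside -0.118 for all genes tested, which was -0.297 with library totals in place of TMM factors. Lgals1 and Crip1 had 73 and 89 UMIs at day 7 and 8 and 30 UMIs at day 0. No dark library reached the level asked for by the default filter, with at most 31.9 CPM of Lgals1 and 95.6 CPM of Crip1. Both genes were therefore let into the test by libraries of mice kept in light. For genes this low in the dark, the filter favoured those that rose in light. The adjusted p of these 2 genes at day 7 does not allow for this. The other genes of the 10 are not in this median, so no shift of the group was read from it. In these sums over cells, fewer cells of a type and less RNA per cell cannot be told apart.

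Several marker lists also varied between the libraries and days in the retained cells. The 8 lens genes summed to between 30.6 and 887 CPM per library in the dark, to between 299.7 and 11420 CPM after 7 days and to between 45.9 and 63.6 CPM after 20 days. Of the 2601 lens UMIs behind the 11420 CPM of day 7 replicate 1, 2341 lay in 1 cell. The 299.7 CPM is 2 UMIs in the library of 10 cells, and days 0 and 7 overlapped for these genes. The 10 monocyte genes, of which 4 were at 0, had 11.6 to 21.2, 0 to 272 and 85.2 to 153 CPM, and the 8 homeostatic microglial genes had 4480 to 5683, 1313 to 2098 and 2518 to 3488 CPM, in the same order of days. Of the 7 microglial genes tested, 6 passed as lower at day 7. The other, Fcrls, passed as higher, with 39, 169 and 99 UMIs on days 0, 7 and 20 (log2 2.72, SE 0.38, edgeR adjusted p = 4.2e-05). Without the 65 retained cells that had 3 or more lens UMIs, the log2 changes after 7 days were 3.27 for Lgals1 (edgeR adjusted p = 0.00173), 1.34 for Anxa5 (adjusted p = 0.0186), 2.02 for Crip1 (adjusted p = 0.0158) and -2.05 for Anxa3, which passed too. This step was chosen after seeing the data. It took day 7 from 328136 to 236487 UMIs and day 0 from 437663 to 312693, and left day 20 at 250731. Lens RNA and depth thus changed together. The 4 MHC class II genes summed to between 632 and 2211 CPM per library in the dark, to between 2697 and 15499 CPM after 7 days and to between 3220 and 14792 CPM after 20 days, and 4 of 4 passed as higher at day 7. The 10 measured rod genes summed to between 1046 and 6272, 288 and 1199, and 177 and 954 CPM, in the same order of days, and 5 of the 5 tested passed as lower at day 7. The part of the lens, monocyte, microglial, MHC class II and rod transcripts in these day differences was not tested.

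Anxa5, which binds phosphatidylserine on the surface of dying cells and is widely used to stain them, rose at day 7. The dark libraries measured 110.1, 117 and 163 CPM, those of day 7 measured 325, 448 and 149.9 CPM, and those of day 20 measured 254, 190.1 and 204 CPM. The day 7 value of 149.9 CPM is a single UMI in the library with 10 cells, and the other libraries of day 7 lay above all libraries of day 0. Each library of day 20 lay above each of day 0, as was the case for 12.6% of the 1283 genes tested. The log2 fold change at day 7 was 1.58 (SE 0.34, 2.99-fold, edgeR adjusted p = 0.00227). At day 20 it was 0.74 against day 0 (SE 0.37, edgeR adjusted p = 0.325), which did not pass.

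Crip1 had 61.2, 95.6 and 23.3 CPM in the dark libraries, 224, 405 and 0 CPM in those of day 7, and 38.2, 118.0 and 102 CPM in those of day 20. Day 7 replicates 1 and 2 were the highest of the 9 libraries, and replicate 3 had no UMI, so the groups overlapped. Crip1 rose at day 7 by a log2 fold change of 2.15 (SE 0.52, 4.44-fold, edgeR adjusted p = 0.00485). At day 20 it was 0.39 against day 0 (SE 0.61, edgeR adjusted p = 0.781) and -1.76 against day 7 (SE 0.56, edgeR adjusted p = 0.0607). With the cells that had a UMI of a T or NK cell gene left out, the other 3 genes stayed past the threshold at day 7. Crip1 then lacked the counts to be tested, so that fit gives no fold for it. In the retained cells, the T or NK cell list summed to 0 to 11.6 CPM per library in the dark. It summed to 53.4 to 149.9 CPM after 7 days, where 149.9 CPM is 1 UMI, and to 0 to 50.9 CPM after 20 days. The part of these transcripts in the Crip1 result was not tested.

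Anxa3, an annexin known from phagocytes, fell at day 7. It measured 612, 690.5 and 559 CPM at day 0, from 100, 130 and 48 UMIs. At day 7 it measured 193, 160.1 and 0 CPM, from 44, 15 and 0 UMIs. At day 20 it measured 331, 498 and 256 CPM, from 26, 76 and 5 UMIs. The 3 days did not overlap, with day 7 lowest and day 0 highest. Of all genes tested, 26.3% lay lower without overlap at day 7 and 14.3% at day 20 than at day 0, and 15.1% lay higher at day 20 than at day 7. The log2 fold change at day 7 was -1.79 (SE 0.36, 3.45-fold lower, edgeR adjusted p = 0.00111), and without the library of 10 cells Anxa3 was still past the threshold. Day 20 was intermediate, at -0.69 against day 0 (SE 0.32, edgeR adjusted p = 0.291) and 1.09 against day 7 (SE 0.38, edgeR adjusted p = 0.0873), neither of which passed.

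**Figure D3:**
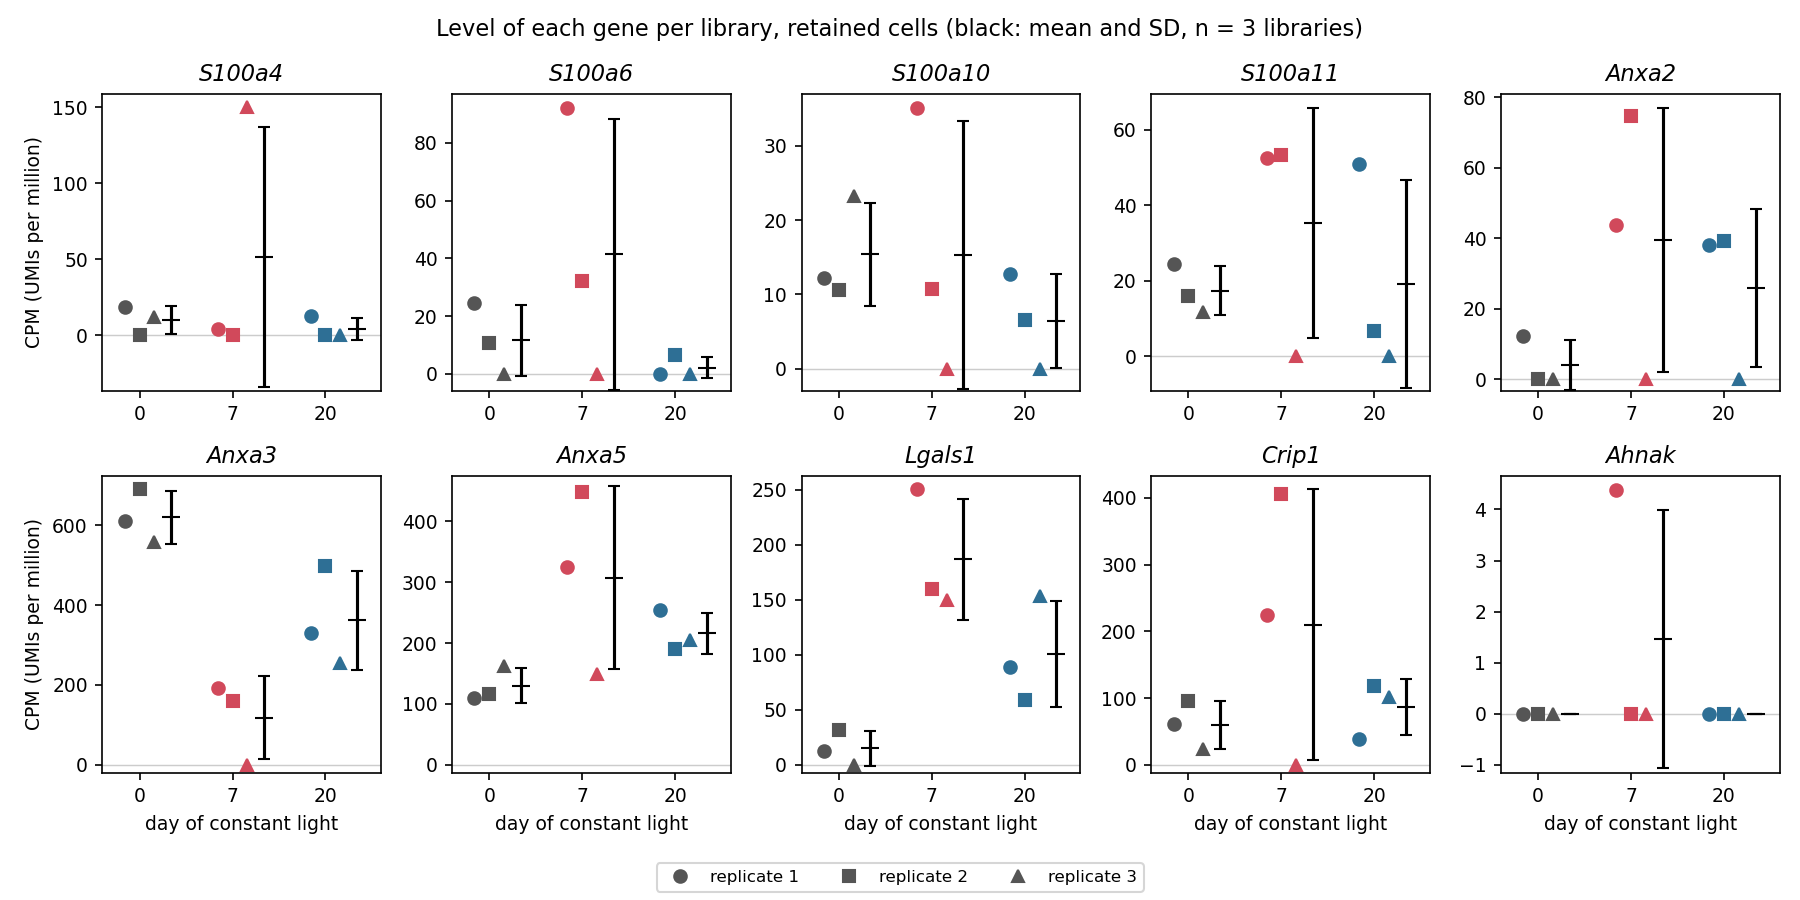
CPM of each gene (vertical axes, scaled per gene) in the retained cells of each library, by day of constant light; marker shapes give the replicate and black bars the mean and SD of 3 libraries. Lgals1 lies between 0 and 31.9 CPM at day 0 and between 149.9 and 250.3 CPM at day 7, while Anxa3 lies between 559 and 690.5 CPM at day 0 and between 0 and 193 CPM at day 7. The 149.9 CPM of Lgals1 is 1 UMI in day 7 replicate 3.

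For day 20 against day 0, 0 of the 4 genes passed edgeR's threshold and 0 passed with DESeq2, beside 3.66% of all genes tested in edgeR. The unadjusted edgeR p was under 0.05 for Lgals1 (0.00751) and Anxa3 (0.0455), as it was for 212 of all 1283 genes. For day 20 against day 7, 0 passed with either tool, beside 8.73% of all genes in edgeR. There the unadjusted edgeR p was under 0.05 for Crip1, Anxa3, Lgals1 and Anxa5, as it was for 268 of all 1283 genes. With both light groups averaged, the difference from the dark passed for Lgals1 (log2 2.81, SE 0.57, edgeR adjusted p = 0.00152), Anxa5 (1.16, SE 0.31, adjusted p = 0.0111) and Anxa3 (-1.24, SE 0.28, adjusted p = 0.00317), so that 2 genes rose and 1 fell, beside 25% of all genes (6.47% higher and 18.6% lower). These contrasts share the day 0 or day 7 libraries.

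With all copies of shared barcodes left in their libraries as deposited, the differences were smaller. This setting also changed which cells were kept, since the entries were clustered anew. A cluster of 479 entries with lens markers and one of 46 with T or NK cell markers were then among those left out. Day 7 replicate 1 kept 150 cells rather than 187. The part of the copies alone in the smaller differences was not tested. Anxa3 then had 579 ± 39.8 CPM in the dark, 464 ± 102 CPM after 7 days and 517 ± 38.9 CPM after 20 days (SD, n = 3), and its log2 change at day 7 was -0.30 (edgeR adjusted p = 0.499). Lgals1 kept a log2 change of 2.24 (edgeR adjusted p = 0.044), Crip1 had 1.19 (adjusted p = 0.0701) and Anxa5 0.36 (adjusted p = 0.535).

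Anxa2, which forms a tetramer with S100a10 at the membrane, had 28 UMIs in the retained cells, too few to be tested with the filter used. Replicates 1 to 3 had 2, 0 and 0 UMIs in the dark, 10, 7 and 0 after 7 days, and 3, 6 and 0 after 20 days. Summed over libraries, day 7 stood at 11.3 times day 0 (17 against 2 UMIs, interval 2.69 to 101), and day 20 at 7.86 times day 0 (9 against 2 UMIs, 1.63 to 74.7). These intervals cover counting error only, not the spread between libraries. With a filter of at least 10 UMIs in total, which passes 6558 genes, the log2 change of Anxa2 at day 7 was 3.56 (SE 0.99, edgeR adjusted p = 0.0115, 5.26% of all genes passed). For day 20 against day 0 the same fit gave 2.68 (SE 1.079, edgeR adjusted p = 0.374), which did not pass.

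S100a6 is found in many proliferating cells. Of its 31 UMIs in retained cells, 24 were at day 7, 21 of them in replicate 1, and 13 of these lay in 1 cell with 2341 UMIs of lens crystallin genes among 4093. In total, day 7 stood at 5.34 times day 0 (24 against 6 UMIs, interval 2.13 to 16). Without the 65 retained cells that had at least 3 lens UMIs, the ratio was 2.12 (8 against 5 UMIs, 0.610 to 8.22). Both intervals cover counting error only, not the spread between cells or libraries. With the filter of 10 UMIs and all retained cells, S100a6 had a log2 change of 2.51 at day 7 (SE 0.82, edgeR adjusted p = 0.0444). At day 20, S100a6 had 1 UMI.

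S100a11, a partner of annexins in membrane repair, had 4, 3 and 1 UMIs in the dark libraries, 12, 5 and 0 in those of day 7, and 4, 1 and 0 in those of day 20, in 30 different cells. The ratio of day 7 to day 0 was 2.83 (17 against 8 UMIs, interval 1.16 to 7.59). Without the cells that had at least 3 lens UMIs it was 2.15 (13 against 8 UMIs, 0.83 to 5.98). The log2 change of S100a11 with the filter of 10 UMIs was 1.76 (SE 0.82, edgeR adjusted p = 0.215), which did not pass. S100a10, the partner of Anxa2, had 2 UMIs in each dark library, 8, 1 and 0 in those of day 7, and 1, 1 and 0 in those of day 20. Its ratio of day 7 to day 0 was 2.00 (9 against 6 UMIs, 0.636 to 6.83). S100a4, known from motile cells and infiltrating leukocytes, had 7 UMIs in the retained cells, of which 4 were from the dark, 2 from day 7 and 1 from day 20. Ahnak had 1 UMI, at day 7. No day difference was detectable for S100a4, S100a10 or Ahnak in the retained cells at this depth. Over all single-library barcodes, S100a10 had 39 UMIs at day 7 and 19 at day 0, a ratio of 2.625 (1.48 to 4.81). Of the 39, 9 and 10 lay in 2 barcodes of day 7 replicate 1, so no day difference was read from this ratio. There the ratio was 1.60 for S100a4 (0.568 to 4.66) and 2.30 for Ahnak (0.693 to 8.74). These barcodes include the mixed cluster, with 13, 33 and 26 cells on days 0, 7 and 20. The intervals cover counting error only.

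Of the 7 genes with an entry in the RefSeq promoter table, S100a11 and Anxa2 were the 2 that held the AP-1 motif TGANTCA, to which Fos and Jun family proteins bind, and their sequence is shown for that reason. The table covers 250 bases before to 50 bases after the start of S100a4, S100a6, S100a11, Anxa2, Anxa5, Crip1 and Ahnak. Both strands were searched. Over all 27025 genes of the table, 8.97% held this motif. GGGCGG was held by 4 of the 7 genes, S100a11, Anxa2, Crip1 and Ahnak (38.2% of all genes), and TATAAA by 2, S100a4 and Anxa2 (15.7% of all genes). The windows below are on the plus strand of GRCm38, capitals mark the AP-1 motif, and its first base lay at -136 and -38 from the start of S100a11 and at -95 from the start of Anxa2. The GGGCGG letters of the second S100a11 window do not overlap the capitals.
S100a11, chr3:93520340-93520386: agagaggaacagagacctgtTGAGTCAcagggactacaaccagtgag
S100a11, chr3:93520438-93520484: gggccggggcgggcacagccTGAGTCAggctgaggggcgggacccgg
Anxa2, chr9:69453568-69453614: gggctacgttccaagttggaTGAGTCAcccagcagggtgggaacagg
A match of these letters is a description of the sequence and does not show binding in these cells.

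The genes of Anxa5 and of the 4 S100 proteins lie on chromosome 3. On the plus strand of GRCm38, S100a4 spans chr3:90603771-90606045 and S100a6 chr3:90612882-90624181, while S100a11 (chr3:93520488-93526287) and S100a10 (chr3:93555080-93564643) lie beside each other farther along the chromosome. Anxa5 is on the minus strand at chr3:36448923-36475894. Lgals1 lies at chr15:78926725-78930465, Anxa3 at chr5:96793339-96845966 and Crip1 at chr12:113146316-113153879, all on the plus strand. All are annotated as protein-coding genes, and the reads counted come from the 3′ ends of their transcripts.

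In single cells the 10 genes were sparse. To compare cells of different depth, 529 retained cells with at least 566 UMIs were thinned to 566 UMIs each, and 176 shallower cells were left out. Anxa3 was then seen in 23.9%, 28.0% and 30.2% of the cells of the dark libraries, in 9.52%, 8.20% and 0% of those of day 7, and in 14.3%, 17.6% and 13.3% of those of day 20. All libraries of day 0 lay above all others, but the share of all genes with such an order in shares of cells is not given. The 0% is that of 4 cells of day 7 replicate 3, too few to give a share. Anxa3 was also seen in 3 of 59 cells of the rod cluster (5.08%) at the same depth (median before thinning, 1367 UMIs, retained cells, 1135).

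Lgals1 was seen in 0%, 1.22% and 0% of cells of the dark libraries, in 8.16%, 9.84% and 0% of those of day 7, in 4.76%, 4.41% and 13.3% of those of day 20, and in 0 of the 59 rod-cluster cells, which allows up to 5.08% of cells with a UMI at this depth and sets no limit on cells that express the gene. Anxa5 was seen in 7.40 ± 3.75%, 14 ± 13.2% and 14.4 ± 5.59% of cells at days 0, 7 and 20 (mean ± SD, n = 3 libraries), and in 0 rod-cluster cells. Crip1 was seen in 2.18 ± 0.892%, 10.1 ± 9.20% and 4.49 ± 2.14%, and in 1 rod-cluster cell (1.69%), too few to set a background level. S100a4, S100a6, S100a10, S100a11 and Anxa2 were seen in at most 2.83% of cells on any day when the libraries of a day were pooled, and Ahnak in none of 529. These shares are near 1 UMI per cell in depth, and no order was read from them.

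**Figure D4:**
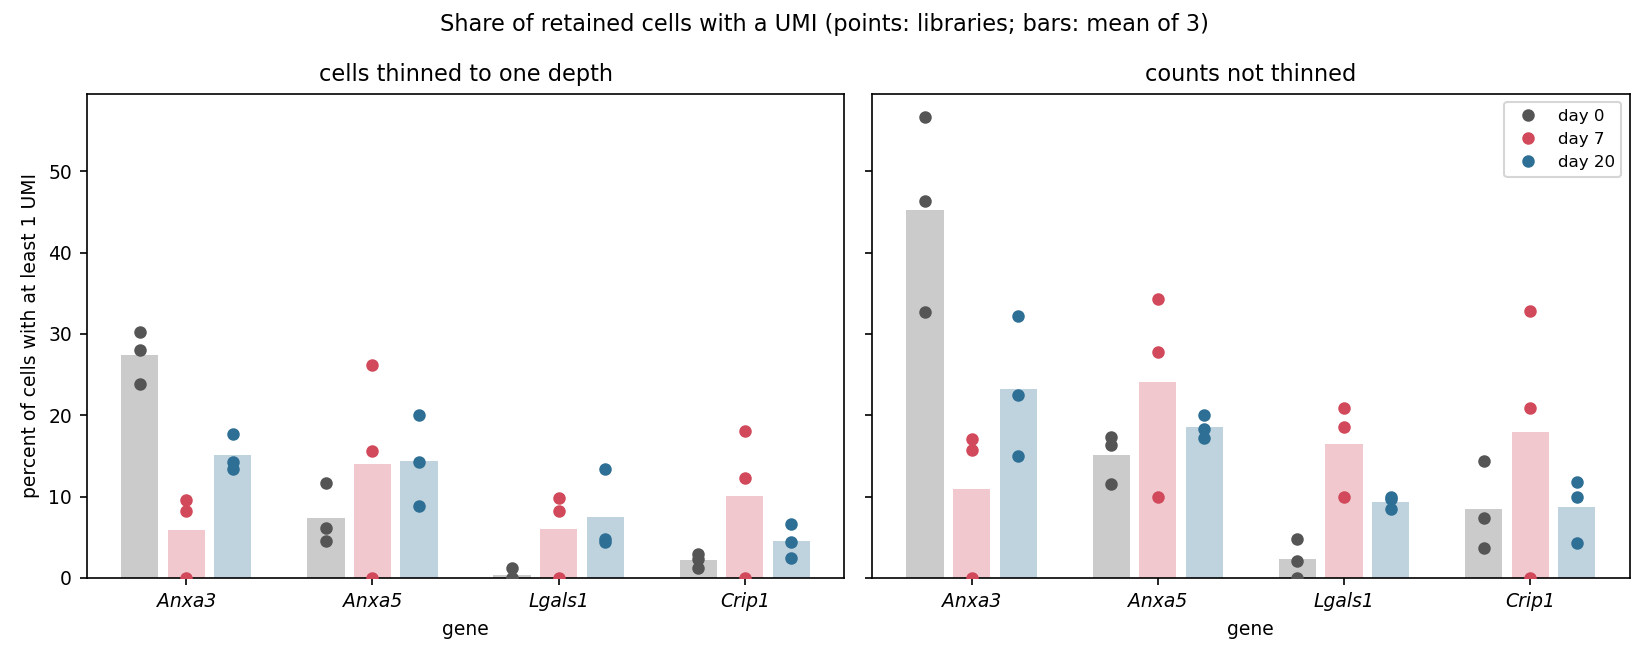
Percent of retained cells with at least 1 UMI of 4 genes (vertical axis), by day, with cells thinned to 566 UMIs (left) and without thinning (right); points are libraries and bars the mean of 3. The day 0 points of Anxa3 lie between 23.9% and 30.2% in the left panel, above those of days 7 and 20, and points at 0% at day 7 are the library of 10 cells.

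Without thinning, the same libraries gave mean shares of 45.3 ± 12%, 10.9 ± 9.50% and 23.3 ± 8.65% for Anxa3 on days 0, 7 and 20, and of 2.30 ± 2.41%, 16.5 ± 5.72% and 9.38 ± 0.817% for Lgals1. The day 7 means include the library of 10 cells, at 0% for Anxa3 and 10% for Lgals1. Anxa3 and Lgals1 also went opposite ways between the retained clusters, which were formed without the 10 genes. Anxa3 was highest, at 901 CPM (125 UMIs, Poisson interval 750 to 1074), in a cluster whose leading genes included P2ry12, Hpgd and Cst3, and 186 CPM (48 UMIs, 137 to 247) in a cluster led by Fabp5, Ms4a7 and Gpnmb, with the lens genes Cryba1 and Cryab also among its leading genes. In the first of these clusters Lgals1 had 36.1 CPM (5 UMIs, 11.7 to 84.1) and in the second 225 CPM (58 UMIs, 171 to 291), and Anxa5 had 166 (23 UMIs, 105 to 249) and 434 CPM (112 UMIs, 358 to 522). These are descriptions without a test.

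In 337 thinned cells of days 7 and 20, the Pearson correlation between 2 of Anxa3, Anxa5, Lgals1 and Crip1 lay between -0.0870 and 0.0820 over 6 pairs, on log values that share depth and libraries. Of 25 cells with an Lgals1 UMI, 7 (28.0%) had one of Anxa5, beside 15.1% of 312 cells without. Anxa3 was in 1 of these 25 cells (4%), beside 12.2% of those without. At this sparsity, these values are no measure of whether the genes share cells.

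Cells were next divided by transcripts that are not among the 10 genes. Homeostatic microglial genes (P2ry12, Tmem119 and others) define resident microglia in the undamaged retina, and MHC class II genes present antigen. Cells with at least 2 UMIs of the list after thinning were compared with cells that had none, within each library with at least 10 cells of each kind, and with the library as a block. The division by microglial transcripts could be made in 6 libraries, 2 of each day. Its list includes Fcrls, which rose at day 7, so at that day its UMIs also decided which cells counted as having these transcripts.

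Anxa5 was lower in cells with microglial transcripts. In day 0 replicates 1 and 3 it had 66.0 and 86.3 CPM in cells with these transcripts, against 192 and 302 CPM in cells without. In day 7 replicates 1 and 2 the values were 273 and 378 CPM with and 356 and 588 CPM without, and in day 20 replicates 1 and 2 they were 88.1 and 108 CPM with and 637 and 283 CPM without. All 6 libraries went the same way, with a log2 difference of -1.13 (SE 0.34, 2.19-fold lower, edgeR adjusted p = 0.0445). The share of all genes with 6 libraries in one direction is not given. Of the 10 genes, 2 had enough counts and 1 passed, lower, beside 15% of all 481 genes tested (4.78% lower). The call rests on each of the 6 libraries, since without any one of them it did not pass, at log2 differences from -0.91 to -1.39. With the classes set from 2 UMIs without thinning, the difference was 0.07.

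Anxa3 was higher in cells with microglial transcripts in 5 of 6 libraries, with 464 ± 186 CPM against 351 ± 201 CPM (SD, n = 6), but the log2 difference of 0.55 (SE 0.26) did not pass (edgeR adjusted p = 0.138). Lgals1 had 33.4 ± 29.5 CPM with and 114 ± 118 CPM without (8 and 45 UMIs), and Crip1 89.7 ± 64.9 and 196 ± 203 CPM (27 and 58 UMIs). Neither had enough counts to be tested with the filter used, and with the filter of 10 UMIs, under which 1.38% of all genes passed, neither did (edgeR adjusted p = 0.26 for Lgals1 and 0.607 for Crip1).

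**Figure D5:**
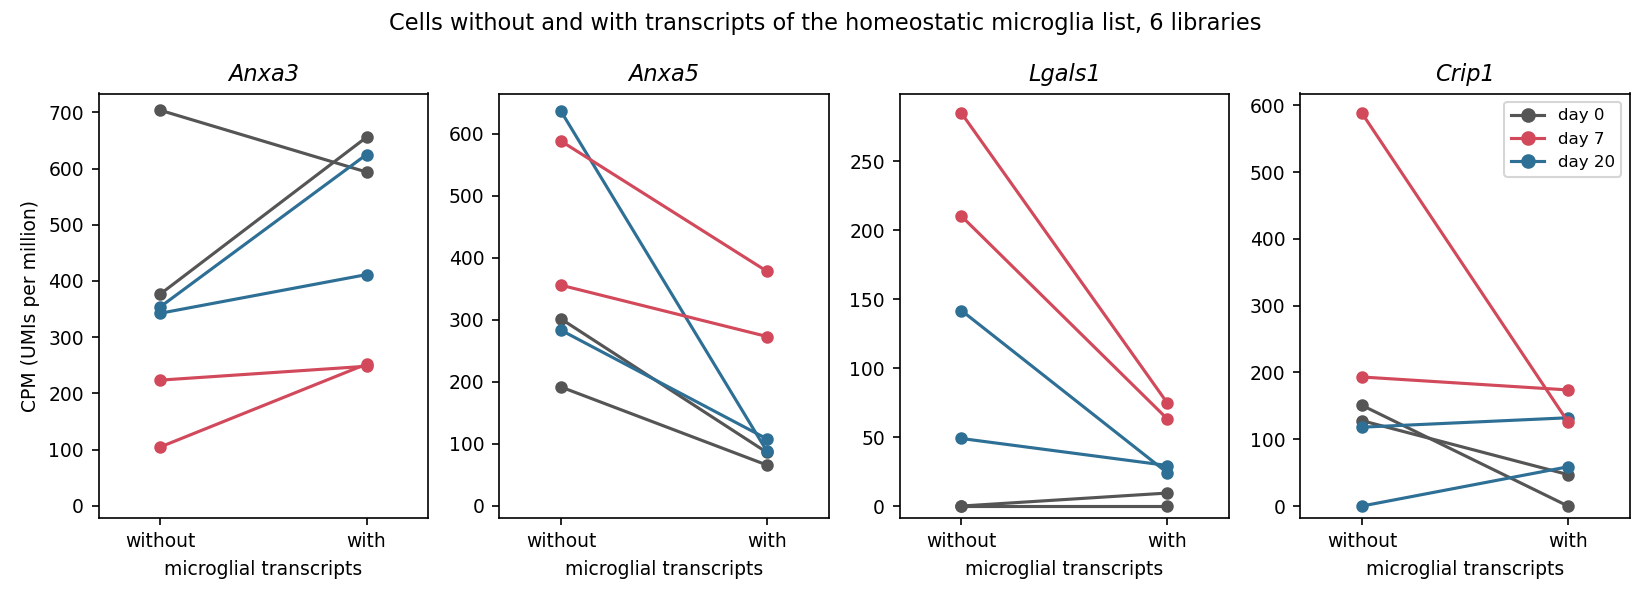
CPM of 4 genes (vertical axes) in cells without and with transcripts of the homeostatic microglia list, with a line for each of 6 libraries coloured by day. All 6 lines fall for Anxa5, from between 192 and 637 CPM to between 66.0 and 378 CPM.

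The division by MHC class II could be made in 4 libraries, replicates 1 and 2 of days 7 and 20, and none of the 10 genes had enough counts to be tested among 316 genes, of which 1.27% passed. S100a11 had 13 UMIs in MHC class II positive cells and 1 in negative cells, or 65.7 ± 28.4 against 9.28 ± 18.6 CPM (SD, n = 4). Its CPM was higher in positive cells in 4 of 4 libraries, but on few UMIs. Day 7 replicates 1 and 2 had 8 and 3 UMIs in positive cells and 0 in negative cells. Day 20 replicate 1 had 1 UMI in each class, and replicate 2 had 1 and 0. In day 7 replicate 1, 1 UMI equals 7.08 CPM in positive and 33.5 CPM in negative cells. No class difference was read from these counts. Anxa5 had 343 ± 195 CPM in positive and 304 ± 122 CPM in negative cells, and was higher in positive cells in 1 of 4 libraries. Lgals1 had 167 ± 57.0 and 138 ± 132 CPM, and was higher in 2 of 4. With the filter of 10 UMIs, 6 of the 10 genes were tested, edgeR called 0 of them with each adjusted p at 0.999, and 0.523% of all 3251 genes passed. The unadjusted p was under 0.05 for 147 of them.

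Relatives of the 10 genes were measured from lists. Of 12 other S100 genes, 0 had enough counts to be tested and 6 had no UMI in the retained cells. S100a13 had 85 UMIs (27, 37 and 21 on days 0, 7 and 20) and S100a1 57 (7, 29 and 21), while S100a8, which neutrophils and monocytes make in large amounts, and S100a16 had 10 each. Of 9 other annexins, 0 were tested, and Anxa7 had 48 UMIs (29, 14 and 5), Anxa6 35 and Anxa11 20. Of 5 LIM domain relatives of Crip1, 0 were tested, and Crip2 had 9 UMIs.

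Among 8 other galectins, 2 were tested and 1 passed. Lgals3, which is made by activated macrophages, had 46.9 ± 22.2, 345 ± 192 and 89.8 ± 95.9 CPM on days 0, 7 and 20 (SD, n = 3), with a log2 change of 3.24 at day 7 (SE 0.53, edgeR adjusted p = 0.000175) and of -1.98 at day 20 against day 7 (SE 0.52, adjusted p = 0.0215). Lgals9 had a log2 change of -0.48 at day 7 (edgeR adjusted p = 0.545). Anxa2 with S100a10 is known as a receptor for plasminogen on cell surfaces. Of the plasminogen system, Serpine2 (log2 -0.41 at day 7, edgeR adjusted p = 0.284) and Eno1 (0.06, adjusted p = 0.929) did not pass. Of 12 membrane repair genes, 2 were tested and 0 passed at day 7, Capns1 (0.35, edgeR adjusted p = 0.568) and Chmp4b (-0.17, adjusted p = 0.833), and 0 did so with an unadjusted p under 0.05.

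Across the 9 libraries, the genes whose log2(CPM + 1) was most like that of Lgals1 were Rpl27-ps3 (Pearson r = 0.962), H2afj (0.951) and Uqcr10 (0.930), and without day 7 replicate 3 the values were 0.961, 0.948 and 0.980. Rpl27-ps3 is a pseudogene that shares sequence with its parent gene, so its counts are uncertain. For Anxa5 they were Hspe1 (0.931), Cd63 (0.922) and Rpl35 (0.896), and 0.951, 0.924 and 0.893 without that library. For Anxa3 they were Tecr (0.996), Cyfip1 (0.994) and Zfp706 (0.993), which became 0.943, 0.933 and 0.897. For Crip1 they were Zfos1 (0.975), Ptpn18 (0.966) and Shisa5 (0.948), which became 0.904, 0.859 and 0.822. The points share the small library, in which several of these genes had no UMI.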

How the data were processed

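The authors sequenced 9 libraries of sorted retinal cells and made gene by barcode matrices with Cell Ranger on mm10 (per the labels; the version is not given in the sources used here). The deposited values are raw UMI counts. Barcodes were kept in the library with the most UMIs, and those with at least 200 genes and under 10% mitochondrial UMIs were clustered (Seurat 5.3.0, 2000 variable genes, 10 principal components, resolution 0.8). Clusters led by markers of other cells were left out, and no doublet caller was run. Counts were summed per library and tested with edgeR 4.0.16 (quasi-likelihood, TMM, its default filter, R 4.3.3), all 9 libraries in one fit. The steps were tested on simulated data. DESeq2 1.42.0, other filters, cells and libraries were alternatives. In the main fit the replicate numbers were not used to pair libraries across days (correlations of deviations, -0.0917 to 0.0893). These correlations do not show whether libraries of the same number were handled together. Of the gene IDs, 98.7% matched GENCODE M21, which supplied positions; promoters were from RefSeq (GRCm38.p6). The genes named were all 10 members, in the other lists at most the 3 with the most UMIs and those called at day 7, and the 3 most alike per tested gene. One gene of the plasminogen list is not reported here. The members and lists were chosen with earlier results of these data known.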

Additional observations from a re-analysis of the deposited data

How the results depend on the processing

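At day 7 against day 0, 4 of the 10 genes passed, and 3 to 5 did so under all alternatives except the deposited counts, where 1 did (Lgals1). Leaving out each library in turn gave 4 in each fit. With no filter on low counts or at least 10 UMIs, Anxa3 did not pass (log2 -1.63 and -1.60), nor did Anxa5 with no filter (1.69). For the mean of both days, 3 passed, 0 did so with the deposited counts, and 2 to 4 without each library. At day 20 against day 0, 0 passed in any fit. At day 20 against day 7, 0 passed, but 1 did without TMM factors (Anxa3), with cells chosen by marker UMIs (Crip1) and with 3 or more lens UMIs as a reason to leave out a cell (Anxa3); leaving out each library gave 0 to 1, the call being Crip1 without day 0 replicate 2 or 3, day 7 replicate 3 or day 20 replicate 3. With the replicate number as a block, 1 passed there (Crip1, log2 -1.86, edgeR adjusted p = 0.0353) and the block changed no other call between days; it moved the genes called at day 7 from 438 to 409. The labels do not say what libraries of the same number share. Replicate 3 had the fewest retained cells on each day (55, 10 and 20 on days 0, 7 and 20). In the division by MHC class II, 0 passed and 1 did with the deposited counts (Anxa3). In that by microglial transcripts, 1 passed (Anxa5), 2 with the deposited counts (Anxa5 and Anxa3), and 0 with classes from 1 or 3 UMIs, DESeq2, no filter, at least 10 UMIs, at least 5 cells of each class, days 7 and 20 only, or cells with a T or NK cell UMI left out; leaving out each library gave 0 in each fit. With classes set without thinning, Anxa5 turned to 0.0708, and the 1 gene that passed was Anxa3. Over all genes, the count called at day 7 was 28 with the deposited counts, 281 with DESeq2, 255 with no filter, 183 with no cluster left out, 255 without cells with lens UMIs, and 218 to 584 without each library; at day 20 against day 0 it was 47, 1 with the deposited counts and 22 without lens cells, and against day 7 it was 112, from 0 (deposited counts) to 144. The cause of these differences was not tested. The alternatives that leave out cells by T or NK cell or lens UMIs, and the filter of 10 UMIs in the divisions, were chosen after seeing the data.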
